A study of Homo sapiens with 17 samples.

Results

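The Rab GTPases described here are the 39 genes, of 9699 in the deposited table, whose symbol is RAB followed by a number and at most 1 letter. RefSeq holds 63 protein-coding genes of that form, and the others are not analysed here. The study measured mRNA by RNA-Seq and ribosome-protected mRNA fragments by Ribo-Seq in BJ cells, a human foreskin fibroblast line immortalized with hTERT. It compared proliferating cells with quiescent cells deprived of serum, with cells in which a tamoxifen-inducible RASG12V had been switched on with 4-OHT for 5 days (pre-senescence) or 14 days (senescence), and with transformed cells. The transformed cells carried, among other changes, hTERT, a knockdown of p16INK4A, SV40 small T and RASG12V delivered in the retroviral vector pBabe-puro, so hTERT was common to the 5 states. The labels do not say whether the proliferating and quiescent cells held the inducible RASG12V. The labels list 9 RNA-Seq and 8 Ribo-Seq samples, and the table holds 12 columns, 6 per assay.

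Rab proteins are small GTPases that sit on the membranes of the cell and pass between a GTP-bound form, which recruits effectors such as tethers and motors, and a GDP-bound form that is extracted to the cytosol. Exchange factors switch them on, GTPase activating proteins switch them off, and each Rab marks its own compartment, from the endoplasmic reticulum and Golgi through secretory vesicles to endosomes and lysosomes. Fibroblasts secrete extracellular matrix and take up and recycle surface receptors, both of which depend on this traffic.

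The samples were sequenced in 2 runs, and each state was compared with the proliferation value of its own run. Run 1 held proliferation (C1 and C2, pooled by the authors), quiescence and pre-senescence, and run 2 held proliferation (C3), senescence and the library labelled transformed. Both assays of C1+C2 and quiescence and the RNA of pre-senescence pool 2 libraries each (5 of the 12 columns), and the other 7 columns hold 1 library. Values are FPKM, fragments per kilobase of transcript and per unit of mapped reads, with a floor of 1 FPKM as the lowest value in the table. The table holds no read counts per gene, so no counting error is given here, and no replicate columns, so no test was made. A value is called higher or lower at 1.5-fold or more, and the 2 proliferation values show how far the same state differed between runs. Translation efficiency is the log2 Ribo-Seq level minus the log2 RNA level. Unless stated otherwise, 3 values in run 1 follow the order proliferation, quiescence, pre-senescence, and 3 values in run 2 follow the order proliferation, senescence, transformed.

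Some labels and markers were checked first. The Ribo-Seq samples titled S and C3 carry each other's condition in a second label and were grouped by title, by which the table's columns are also named. Under that grouping the proliferation marker MKI67 was at 43.0 FPKM in C3 and at the floor in senescence by Ribo-Seq, and at 44.0 FPKM and the floor by RNA-Seq. In the library labelled transformed, RNA of CDKN2A, the p16INK4A gene, was 12.6 FPKM against 6.75 in C3, which goes against its labelled knockdown, and 17.2 in C1+C2. By Ribo-Seq CDKN2A was 5.51 FPKM in that library, the lowest of the 6 columns, against 8.92 in C3. HRAS RNA lay between 1254 and 2415 FPKM in the other 5 columns, proliferation included, and at 312 FPKM in that library. All 10 fibroblast markers were in the table, with summed RNA of 5498 to 8207 FPKM, whereas epithelial markers (3 of 7, 105 to 313 FPKM), haematopoietic markers (2 of 5, 39.3 to 133 FPKM) and endothelial markers (0 of 4 in the table) were lower or not analysed here.

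In RNA the median Rab gene lay between 18.3 and 20.7 FPKM, above the median of all genes in each column (11.99 to 13.8 FPKM). RAB7A, which drives fusion of late endosomes with lysosomes, had the highest geometric mean over the 6 columns (207 FPKM), at 179, 202 and 256 FPKM in run 1 and 177, 261 and 183 FPKM in run 2. RAB1B was above it in C1+C2 (194 FPKM) and RAB5C in the library labelled transformed (207 FPKM). The next in order of geometric mean were RAB1B of endoplasmic reticulum to Golgi transport (186 FPKM), RAB5C of the early endosome (163 FPKM) and RAB13 of junctional and exocytic traffic (133 FPKM). Over the 6 columns the highest RNA value was under 1.5 times the lowest for 11 of the 39 genes and 2 times or more for 12. RAB2B and RAB21 varied least, at 1.25 times. RAB31, at 5.47 times, and RAB3B, at 4.90 times, varied most among genes that stayed above the floor, and RAB6B was at the floor in 4 of 6 columns. In all, 37 of the 39 genes had a geometric mean of at least 2 FPKM in RNA, all but RAB6B and RAB43, and the 39 did so by Ribo-Seq.

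The 2 proliferation values show how far the same state differed between runs, which is not a measure of spread within a run. RNA of 7 of 37 Rab genes differed 1.5-fold or more between C3 and C1+C2, 6 higher and 1 lower, where 11.4% of all genes tested were higher and 14.5% lower. RAB3B (105 against 40.3 FPKM) and RAB31 (14.1 against 5.98 FPKM) were higher in C3, whereas RAB38 (4.54 against 7.86 FPKM) was lower. By Ribo-Seq 16 of 39 differed, 9 higher and 7 lower (20.6% of all genes in each direction), and in translation efficiency 8 of 37, 2 higher and 6 lower (15.2% and 11.3%). The runs also differed in library type, since the run 2 RNA libraries were single-end and the others paired-end, and what this does to single genes was not tested. Changes that also passed 1.5-fold against the other run's proliferation value are therefore named as such.

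In quiescent cells, RNA of 5 of 37 Rab genes was higher and none was lower, where 10.5% of all genes were higher and 8.95% lower. In bulk samples, fewer cells with a gene's RNA and less of it per cell cannot be told apart. The 5 genes were RAB27B, RAB38, RAB31, RAB3D and RAB5B, with log2 differences of 1.06, 0.86, 0.86, 0.84 and 0.75. RAB27B, which docks secretory vesicles, RAB38, of lysosome-related organelles, and RAB3D, of regulated exocytosis, also passed against C3 (background 4.83% higher and 2.94% lower). RAB5B did not, since its quiescent level of 60.9 FPKM stood against 36.1 in C1+C2 and 55.0 in C3. RAB31, which works between the trans-Golgi network and endosomes, did not keep its direction, with 10.8 FPKM in quiescence lying between 5.98 and 14.1 FPKM in the proliferating cells.

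After 5 days of RAS, RNA of 4 Rab genes was higher and none lower, where 5.48% of all genes were higher and 6.69% lower. Centred on the median of all genes the counts were 4 higher and 1 lower (4.77% and 7.51%). RAB27B (log2 difference 1.33), RAB38 (0.85) and RAB9A (0.78), the last of which returns cargo from late endosomes to the Golgi, also passed against C3 (background 3.02% higher and 4.02% lower), whereas RAB31 (0.74) did not. RAB38 RNA was 7.86, 14.3 and 14.1 FPKM in run 1, so quiescent and pre-senescent cells stood at like levels, both above the 2 proliferation values. RAB27B RNA was 1.84, 3.83 and 4.63 FPKM, low in all 3 columns and lowest in proliferation. Neither of these run 1 counts exceeded the 7 genes that separated the 2 proliferation values, but those values span 2 runs. The 7 genes therefore do not measure the spread within run 1, for which no values are given.

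In senescent cells more Rab genes differed in RNA than in the other 3 states at 1.5-fold, with 8 of 37 higher and 3 lower, where 18.3% of all genes were higher and 22.4% lower. At 2-fold senescence and the library labelled transformed had 4 each, and with a cut-off of 1.75 local SD senescence had 1, pre-senescence 3 and the library labelled transformed 2. The shares of all genes at these cut-offs are not given here, so these counts are not set against a background. RAB3A, RAB32, RAB3D and RAB11A were more than 2-fold higher, and RAB27A had the largest difference downwards. Of the 11, 7 higher genes (RAB3A, RAB32, RAB3D, RAB11A, RAB9A, RAB18 and RAB33B) and 2 lower genes (RAB27A and RAB38) also passed against C1+C2, where the background was 13.3% and 18.3%. RAB33B passed the RNA filter of 2 FPKM narrowly, with a geometric mean of 2.02 FPKM that falls under the filter without its senescent value of 3.62 FPKM. With a pseudocount of 1 FPKM its log2 difference was 0.48, under 1.5-fold, and without RAB33B 7 genes were higher. With that pseudocount RAB38 was at -0.50, also under 1.5-fold, and the counts were 7 higher and 2 lower. The higher share was thus near the background and the lower share under it, and the account is of single genes.

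RAB32, which acts in the formation of melanosomes and other lysosome-related organelles, had the highest RNA level of these 4 genes. It stood at 62.2, 65.4 and 64.6 FPKM in run 1 and at 48.8, 138 and 33.9 FPKM in run 2. The senescent value lay above the other 5, 2.83-fold over C3, and the lowest of the 6 was that of the library labelled transformed. MITF, the 1 of 6 melanocyte markers in the table, was 17.1 FPKM in senescence and 4.06 to 8.35 FPKM elsewhere. Its part in the RAB32 result was not tested.

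RAB11A, the GTPase of recycling endosomes, had a narrow range of RNA levels in 5 columns and a higher level in senescence. RNA was 22.8, 29.8 and 29.5 FPKM in run 1 and 26.2, 59.2 and 26.1 FPKM in run 2, 2.26-fold higher in senescence than in C3. Its Ribo-Seq level was 216, 168 and 143 FPKM in run 1 and 222, 517 and 194 FPKM in run 2. Senescence was again above the other 5 columns, 2.32-fold over C3 by Ribo-Seq.

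RAB3A, of synaptic and other regulated secretion, had RNA of 2.52, 2.23 and 2.58 FPKM in run 1 and 2.07, 6.73 and 4.03 FPKM in run 2. RAB3D RNA was 1.89, 3.39 and 1.28 FPKM in run 1 and 1.80, 4.51 and 3.16 FPKM in run 2. Both were low, and both had their highest value in senescence, with log2 differences of 1.70 and 1.33. RAB6B, a form of the Golgi GTPase RAB6 known mostly from neurons, was at the RNA floor in the 3 columns of run 1 and in C3, and at 5.08 FPKM in senescence and 3.65 FPKM in the library labelled transformed. It was therefore at least 5.08-fold and at least 3.65-fold higher than its floor value in C3. The 3 of 4 neuronal markers in the table (SNAP25, SYT1 and TUBB3) summed to 29.6 FPKM in senescence, 17.3 FPKM in the library labelled transformed and 9.54 to 16.5 FPKM in the other 4 columns. Their part in the RAB3A and RAB6B results was not tested.

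Of the 3 genes lower in senescence, RAB27A and RAB3B act in exocytosis, where RAB3A and RAB3D were higher, and RAB38 in lysosome-related organelles, where RAB32 was higher. RAB27A, which docks melanosomes, granules and exosome-bearing vesicles at the cell surface, had RNA of 4.74, 5.85 and 5.17 FPKM in run 1 and 5.32, 2.70 and 6.59 FPKM in run 2, lowest in senescence (log2 difference -0.98). RAB38 RNA was 4.54, 2.92 and 9.78 FPKM in run 2, also lowest in senescence of the 6 columns (-0.64). The RNA of RAB3B was 40.3, 32.8 and 31.8 FPKM in run 1 and 105, 57.2 and 21.5 FPKM in run 2, so the senescent value lay below C3 (-0.88) and above C1+C2.

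**Figure D1:**
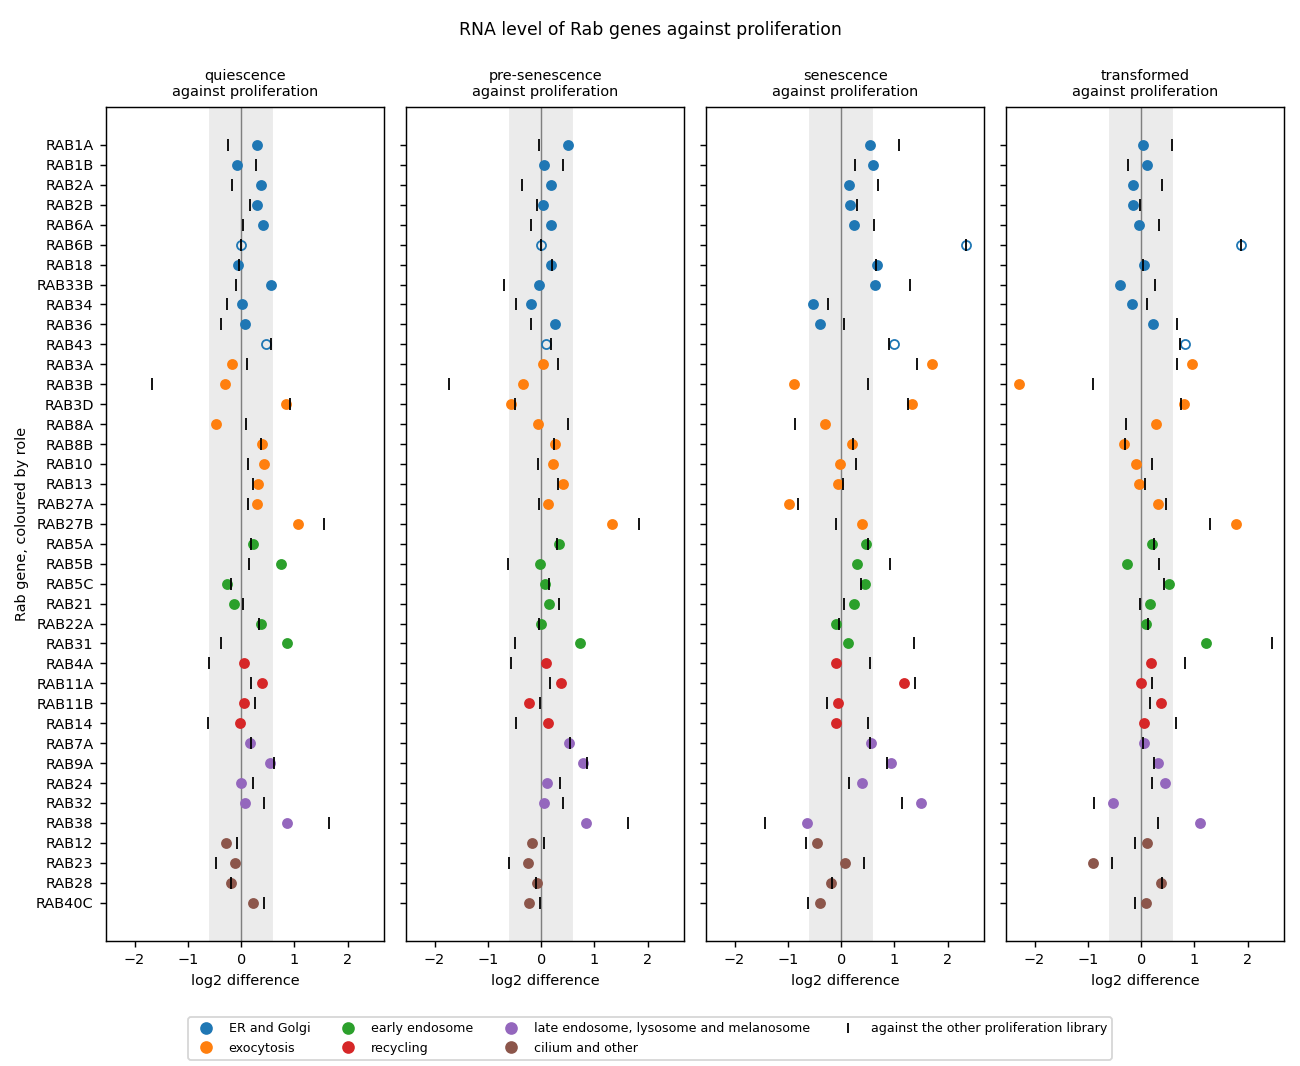
Log2 difference of RNA level from the proliferation value of the same run for 39 Rab genes in the 4 states (points, coloured by compartment; open points are the 2 genes under the RNA filter), with a tick for the difference from the other run's proliferation value. The grey band covers changes under 1.5-fold. Senescence has 8 filled points to the right of the band and 3 to its left, and the ticks of RAB3B and RAB31 lie far from their points.

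The RefSeq promoter sequences of 5 of these genes are shown, RAB32, RAB11A and RAB6B as genes higher in senescence and RAB27B and RAB3B as the genes past the RNA filter with the largest RNA differences upwards and downwards in the library labelled transformed. Each is the 250 bases upstream of the annotated start on GRCh38.p14, written 5′ to 3′ on the gene's strand. Capitals mark matches to the GC box GGGCGG, the AP-1 motif TGANTCA or the ETS motif CCGGAAGT on either strand. The E-box CACGTG and the CRE motif TGACGTCA were also searched and have no match in these 5.
RAB32, chr6:146543583-146543832, plus strand: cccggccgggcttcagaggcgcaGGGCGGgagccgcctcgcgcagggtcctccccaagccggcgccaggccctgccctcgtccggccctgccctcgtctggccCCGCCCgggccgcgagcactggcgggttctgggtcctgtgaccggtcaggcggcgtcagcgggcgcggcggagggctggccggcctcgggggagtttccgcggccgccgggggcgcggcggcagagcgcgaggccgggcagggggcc
RAB11A, chr15:65869241-65869490, plus strand: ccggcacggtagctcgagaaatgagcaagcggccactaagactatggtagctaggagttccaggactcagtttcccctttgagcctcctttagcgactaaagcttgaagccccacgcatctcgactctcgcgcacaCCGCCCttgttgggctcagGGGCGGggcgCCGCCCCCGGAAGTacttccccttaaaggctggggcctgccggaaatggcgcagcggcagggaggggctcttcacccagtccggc
RAB6B, chr3:133895883-133896132, minus strand: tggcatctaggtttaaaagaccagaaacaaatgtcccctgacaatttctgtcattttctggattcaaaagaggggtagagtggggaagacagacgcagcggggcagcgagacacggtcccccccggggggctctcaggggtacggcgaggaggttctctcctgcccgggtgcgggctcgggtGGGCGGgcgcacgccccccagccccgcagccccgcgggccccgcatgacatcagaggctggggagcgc
RAB27B, chr18:54717607-54717856, plus strand: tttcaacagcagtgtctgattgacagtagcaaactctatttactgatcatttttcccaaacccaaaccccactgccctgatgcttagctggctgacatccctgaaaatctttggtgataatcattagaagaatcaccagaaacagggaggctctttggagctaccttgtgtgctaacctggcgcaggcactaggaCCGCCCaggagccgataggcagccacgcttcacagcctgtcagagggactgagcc
RAB3B, chr1:51990701-51990950, minus strand: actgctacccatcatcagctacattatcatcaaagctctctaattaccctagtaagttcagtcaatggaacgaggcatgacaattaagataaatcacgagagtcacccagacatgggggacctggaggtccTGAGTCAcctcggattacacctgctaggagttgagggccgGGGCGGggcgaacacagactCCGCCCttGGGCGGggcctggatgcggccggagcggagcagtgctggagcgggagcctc
The RAB32 window was 82% G and C with 36 CpG and 2 GC boxes, whereas that of RAB27B was 50.4% G and C with 4 CpG and 1 GC box. RAB11A had 3 GC boxes, the last directly followed by an ETS match, and RAB3B had 3 GC boxes and an AP-1 match. Promoters were found for 33 of the 39 genes. Of these, 31 held a GC box (93.9%, against 42.3% of 27305 promoters of the same length), 5 an E-box (15.2% against 6.49%), 3 an ETS match (9.09% against 3.64%), 2 an AP-1 match (6.06% against 6.60%) and 0 a CRE match (against 1.77%). The 33 had a median of 65.6% G and C and 23 CpG, against 58% and 11 over all promoters. The 27305 promoters were not limited to the 9699 genes of the series. The part of base composition, expression and gene type in the motif shares was not tested. A match is a run of letters and says nothing on binding in these cells.

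In the library labelled transformed, RNA of 5 of 37 Rab genes was higher and 2 were lower, where 12.3% of all genes were higher and 11% lower. RAB27B stood at 1.30, 1.71 and 4.48 FPKM in run 2 (log2 difference 1.78) and RAB31 at 14.1, 15.3 and 32.7 FPKM (1.22). RAB31 was higher there than in any other column. RAB38 (1.11), RAB3A (0.96) and RAB3D (0.81) were also higher, of which RAB38 did not pass against C1+C2. With a pseudocount of 1 FPKM RAB3D was at 0.57, under 1.5-fold, and 4 genes were higher. RAB3B had the largest RNA difference of any Rab gene that passed the filter in the 4 states, at 21.5 FPKM against 105 in C3 (-2.29), and was still 1.5-fold or more below C1+C2. RAB23, a regulator of Hedgehog signalling at the cilium, was lower than C3 (13.7 against 25.5 FPKM, -0.90) but less than 1.5-fold below C1+C2 (20.0 FPKM). Against both proliferation values 4 were higher and 1 was lower, where the background was 6.03% and 5.97%.

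Senescence and the library labelled transformed, both labelled with RASG12V and both of run 2, were compared directly. RNA of 8 of 37 Rab genes was higher in senescence (18.2% of all genes) and of 5 lower (26.6%). Centred on the median of all genes the counts were 14 and 4 (21.3% and 23.4%). By Ribo-Seq 15 of 39 were higher (22.6%) and 7 lower (29.8%), and the median Rab gene was 0.35 higher on the log2 scale while the median of all genes was -0.10. Both assays placed RAB11A, RAB23, RAB32, RAB33B, RAB3A, RAB3B and RAB9A higher in senescence and RAB27A, RAB27B, RAB31, RAB36 and RAB38 lower, which is 18.9% and 13.5% of 37 against 14% and 21% of all genes. RAB33B passed the RNA filter through its senescent value, and without it 6 genes were higher in both. RAB32 was 4.07-fold higher by RNA and 3.70-fold by Ribo-Seq, and RAB38 was 3.35-fold and 3.61-fold lower, though both belong to 1 subfamily. RAB27B was 4.61-fold lower by Ribo-Seq and 2.62-fold by RNA. Of the Rabs of the endoplasmic reticulum and Golgi, 5 of 11 were higher by Ribo-Seq (RAB1A, RAB1B, RAB2A, RAB2B and RAB33B) and 2 lower (RAB34 and RAB36). In RNA 2 of 9 were higher (RAB18 and RAB33B) and 1 lower (RAB36), while RAB1A (0.51) and RAB1B (0.50) lay just under 1.5-fold on the log2 scale. The difference between the assays was not tested.

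**Figure D2:**
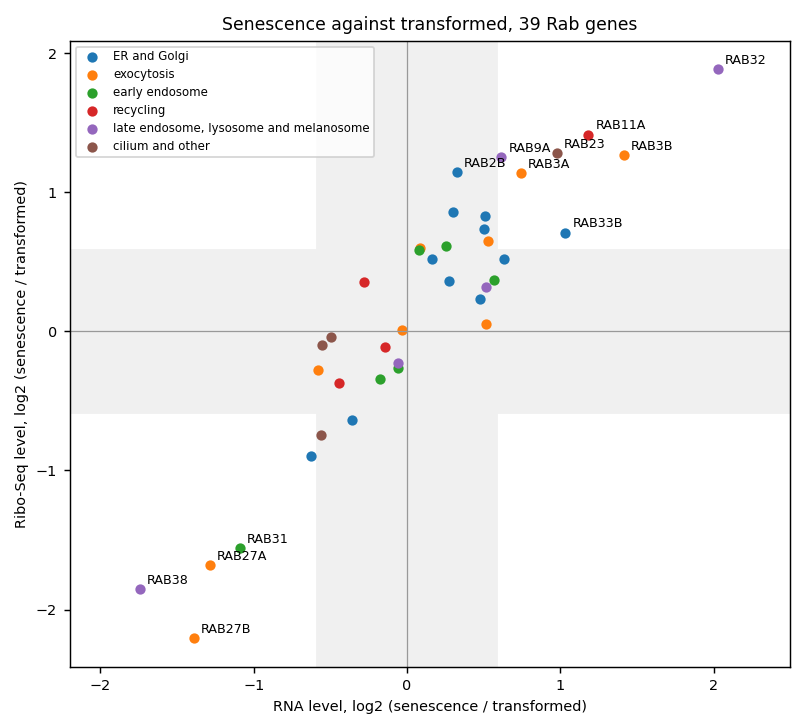
RNA difference (x axis) and Ribo-Seq difference (y axis) between senescence and the library labelled transformed for 39 Rab genes, log2, coloured by compartment. Grey bands cover changes under 1.5-fold, and genes that differ 2-fold or more in either assay are named. RAB32, RAB11A and RAB3B lie at the upper right and RAB38, RAB27B and RAB27A at the lower left.

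Paralogs of 1 subfamily often differed in pattern. RAB32 exceeded RAB38 in RNA in all 6 columns, by a log2 ratio of 1.79 in the library labelled transformed, about 2.19 in both quiescence and pre-senescence, 2.99 in C1+C2, 3.42 in C3 and 5.56 in senescence. The senescent ratio, 47.2-fold in RNA and 50.4-fold by Ribo-Seq, was the largest in both assays. RAB11B had more RNA than RAB11A in 5 columns, by 1.40-fold to 2.12-fold, and less only in senescence (40.1 against 59.2 FPKM). By Ribo-Seq RAB11A was above RAB11B in all 6 columns, by 1.52-fold in quiescence to 8.26-fold in senescence. RAB11B was at 62.6 FPKM there and at 105 in C3.

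Among the other groups, RAB6A, the common form, was 28.2 to 43.1 FPKM in RNA in every column while RAB6B left the floor in 2 of them. RAB27A exceeded RAB27B in RNA in all 6 columns, from 1.12-fold in pre-senescence to 4.09-fold in C3, and by Ribo-Seq in 4, with RAB27B ahead in pre-senescence (15.0 against 11.6 FPKM) and in the library labelled transformed (22.6 against 20.5 FPKM). RAB22A stayed between 7.14 and 9.59 FPKM of RNA while its relative RAB31 ranged from 5.98 to 32.7 FPKM. RAB3B was the main RAB3 form in both assays and all columns, 5.33-fold or more over RAB3A in RNA. In RNA, RAB1B was above RAB1A, RAB2A above RAB2B, RAB8A above RAB8B, and RAB5C above RAB5B above RAB5A in all 6 columns, so these orders did not change with the state. Near-identical stretches between paralogs can lose reads because only uniquely mapped reads were kept, and RAB43 shares sequence with the readthrough gene ISY1-RAB43.

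By Ribo-Seq, which counts fragments per kilobase of coding sequence, more Rab genes passed 1.5-fold than by RNA-Seq, as did more of all genes. In quiescence 6 of 39 were higher (18% of all genes) and 7 lower (22.8%). RAB40C, a Rab with a SOCS box, was 4.96 FPKM in C1+C2 and 11.7 in quiescence, and RAB38 was 6.82 and 17.8 FPKM. RAB8A, of post-Golgi and ciliary transport, was 186 FPKM in C1+C2 and 80.6 in quiescence, and RAB4A, of rapid recycling, was 25.8 and 12.8 FPKM. Only RAB38 and RAB40C (higher) and RAB4A and RAB3B (lower) also passed against C3 (8.38% and 10.8% of all genes). RAB8A did not, since C3 was at 104 FPKM. RAB28 (0.74), RAB34 (0.70) and RAB2B (0.65) were also higher on the log2 scale than C1+C2 and RAB27A (-0.81), RAB32 (-0.71) and RAB43 (-0.71) lower, and RAB2B, RAB27A and RAB32 changed sign against C3. RAB3A was at the floor in C1+C2 and at 3.41 FPKM in quiescence, at least 3.41-fold higher, against 3.07 FPKM in C3.

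In pre-senescence 4 of 39 were higher (15.4% of all genes) and 14 lower (23.2%), and 4 and 10 also passed against C3 (7.83% and 14%). The 10 were RAB31, RAB12, RAB23, RAB33B, RAB6A, RAB4A, RAB3B, RAB18, RAB2B and RAB11A. The lower genes lay on several routes. RAB31 was 5.18 FPKM in C1+C2 and 1.71 in pre-senescence, and RAB12, which acts in receptor degradation, was 48.1 and 21.9 FPKM. RAB33B, of the Golgi and autophagosomes, was 5.17 and 2.43 FPKM, and RAB6A was 77.3 and 37.4 FPKM. RAB27A (-1.51), RAB3D (-1.21) and RAB23 (-1.13) were also lower on the log2 scale, of which RAB23 passed against C3 and RAB3D changed sign. The higher genes were RAB38, RAB9A, RAB27B and RAB3A, and RAB3A was at the floor in C1+C2 and at 7.32 FPKM in pre-senescence, at least 7.32-fold higher. The median of all genes was itself shifted in this comparison, by -0.13. After centring on it the counts were 4 higher and 10 lower, where 19.8% and 17.9% of all genes were.

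In senescence 9 of 39 were higher by Ribo-Seq (20.6% of all genes) and 8 lower (29.6%). Centred on the median of all genes (-0.12) the counts were 13 and 8 (24.4% and 25.2%). RAB6B was 1.22, 1.00 and 1.00 FPKM in run 1 and 2.09, 16.6 and 14.1 FPKM in run 2, so senescence and the library labelled transformed stood above the other 4 columns. RAB6B passed the Ribo-Seq filter only through these 2 columns, and without it 8 genes were higher in senescence and 4 in the library labelled transformed. RAB1A, a GTPase of endoplasmic reticulum to Golgi transport, was 182 FPKM in C3 and 316 in senescence, and RAB5A was 50.1 and 81.3 FPKM. RAB38 was 7.09 FPKM in C3 and 1.91 in senescence, and RAB27A was 14.4 and 6.40 FPKM. These 5 and RAB3A, RAB11A and RAB11B were the 5 higher and 3 lower genes that also passed against C1+C2 (16% and 22.8% of all genes). RAB36 (-0.96), RAB40C (-0.91) and RAB34 (-0.77) were lower than C3 on the log2 scale and did not pass against C1+C2. In the library labelled transformed 5 were higher (12.6%) and 8 lower (15.4%), and RAB6B, RAB27B, RAB31 and RAB3A (higher) and RAB3B, RAB23, RAB32, RAB9A and RAB43 (lower) passed against both proliferation values (6.43% and 8.29%). RAB3D (0.94) was also higher and RAB40C (-0.87) also lower, but against C3 only. The genes higher against both proliferation values include RAB6B in both states, with the limit on its filter given above.

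RNA and Ribo-Seq differences were closer to each other in run 2 than in run 1. Over 37 Rab genes the correlation between the RNA and the Ribo-Seq log2 differences was 0.13 in quiescence, 0.28 in pre-senescence, 0.84 in senescence and 0.86 in the library labelled transformed, against 0.71, 0.45, 0.84 and 0.85 over all 8831 genes. These are across genes that share the same 4 columns and are descriptions only. Both run 1 values over Rab genes include RAB3A, whose Ribo-Seq level in C1+C2 was at the floor. Correlations without RAB3A were not computed. Passing 1.5-fold in both assays and the same direction were RAB38 in quiescence and RAB27B, RAB38 and RAB9A in pre-senescence, all higher, as were 7.71% and 3.09% of all genes. In senescence RAB11A, RAB32, RAB3A, RAB3D and RAB9A were higher in both (11.4% of all genes) and RAB27A, RAB38 and RAB3B lower (17.7%). In the library labelled transformed RAB27B, RAB31, RAB3A and RAB3D were higher in both (7.28%) and RAB23 and RAB3B lower (8.24%). With the other run's proliferation value RAB3B in senescence turned to 0.50 in RNA and 0.31 by Ribo-Seq, and the Ribo-Seq differences of RAB3D (-0.84 in senescence, -0.89 in the library labelled transformed) and of RAB32 in senescence (-0.0046) also turned. The Ribo-Seq difference of RAB9A in senescence was under 1.5-fold with that value (0.35) and with a pseudocount of 1 FPKM (0.58). RAB3D in quiescence and RAB31 in pre-senescence passed in opposite directions, higher in RNA and lower by Ribo-Seq, as did 0.193% and 0.589% of all genes. With the other run's proliferation value neither did, since RAB3D was 1.16 higher by Ribo-Seq and RAB31 RNA was at -0.50.

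Rab mRNAs had high translation efficiency in every column. Their median log2 value lay between 0.71 (library labelled transformed) and 1.16 (C1+C2), above the 0.26 to 0.45 of all genes, and 25 to 29 of 37 exceeded the median of all genes. RAB11A had the highest mean over the 6 columns (2.85), followed by RAB21, of early endosomes and integrin traffic (2.61), and by RAB43 (2.29), whose RNA was under the filter. RAB31 (-0.90), RAB34 (-0.53) and RAB40C (-0.46) were lowest. Paralogs differed here too, with RAB11A over RAB11B, RAB22A over RAB31 and RAB8B over RAB8A in all 6 columns.

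Translation efficiency of the Rab genes was mostly lower in both states of run 1 than in C1+C2. In quiescence 4 of 37 Rab genes were higher (10.6% of all genes) and 13 lower (13.3%), with a Rab median of -0.38 against -0.06 for all genes. The higher genes were RAB3A (at least 1.95, from the Ribo-Seq floor in C1+C2), RAB40C (1.02), RAB28 (0.92) and RAB34 (0.68), and the largest lower ones RAB3D (-1.51), RAB27B (-1.33), RAB31 (-1.15), RAB27A (-1.11), RAB4A (-1.06) and RAB8B (-0.91), of which RAB3D and RAB27A changed sign against C3. In pre-senescence 1 was higher (13.4%) and 19 were lower (22.7%), with a median of -0.59 against -0.15. The higher gene was RAB3A (at least 2.84), and the largest lower ones were RAB31 (-2.33), RAB27A (-1.63), RAB6A (-1.23), RAB4A (-1.07), RAB33B (-1.05) and RAB12 (-0.97). After centring on that shift 1 was higher and 11 were lower (18.8% and 15.7% of all genes). The share of lower Rab genes was thus above the background in both states. Before centring, 6 of 9 exocytic, 6 of 9 endoplasmic reticulum and Golgi, 2 of 4 recycling, 2 of 6 early endosomal, 2 of 4 cilium and other and 1 of 5 late endosomal and lysosomal genes were lower in pre-senescence than in C1+C2. Against both proliferation values 0 of the exocytic, 5 of the endoplasmic reticulum and Golgi, 1 of the recycling, 2 of the early endosomal, 2 of the cilium and other and 1 of the late endosomal and lysosomal genes were lower. The exocytic genes of C3 were themselves at a median of -0.50 against C1+C2, with 4 of 9 lower.

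The counts differ with the proliferation value used, and the Rab median was highest in C1+C2 of the 6 columns. C3 was itself 0.23 lower than C1+C2 at the Rab median, while all genes were at 0.03. Against both proliferation values 5 genes were lower in quiescence (RAB27B, RAB31, RAB13, RAB11A and RAB33B) and 0 were higher, where 6.98% and 3.1% of all genes were. In pre-senescence 11 were lower and 1 (RAB3A) was higher, where 14.7% and 6.13% were. The 11 were RAB31, RAB6A, RAB33B, RAB12, RAB11A, RAB23, RAB18, RAB21, RAB7A, RAB2B and RAB36. RAB4A was not among them, at 0.89 in pre-senescence and 1.02 in C3. RAB31 had the largest difference of the lower genes in pre-senescence, with log2 values of -0.21, -1.36 and -2.54 in run 1 and -0.13, -0.81 and -0.35 in run 2. RAB6A stood at 1.46, 0.74 and 0.23 in run 1 and between 0.71 and 0.92 in run 2, and RAB7A at 1.55, 1.19 and 0.67 against 1.11 to 1.31. For these 3 genes pre-senescence was the lowest of the 6 columns. RAB27A, whose pre-senescent difference was -1.63, was 2.79 in C1+C2 and 1.16 to 1.68 in the other 5 columns, so that C1+C2 stood apart.

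In run 2 fewer genes passed 1.5-fold in translation efficiency. In senescence 1 of 37 was higher (12.8% of all genes) and 4 were lower (18.1%), and in the library labelled transformed 0 were higher (4.25%) and 5 lower (9.86%). RAB38 had the largest difference in both states (-1.26 and -1.15) but did not pass against C1+C2. The others were RAB10 (0.72, with the opposite sign against C1+C2), RAB32, RAB11B (-0.69) and RAB31 in senescence, and RAB40C (-0.96), RAB9A, RAB11B and RAB1B (-0.61) in the library labelled transformed. RAB32 (-0.72) and RAB31 (-0.69) in senescence and RAB9A (-0.95) and RAB11B (-0.76) in the library labelled transformed were lower against both proliferation values. Against both, 0 genes were higher in either state, where the background was 8.27% and 2.49% higher and 10.8% and 5.01% lower. RAB32 thus differed less by Ribo-Seq, at 55.8 FPKM in C3 and 96.2 in senescence, than in RNA, and 96.2 FPKM was near the 96.5 of C1+C2. Between senescence and the library labelled transformed 3 were higher (12.9%) and 1 lower (11.3%).

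**Figure D3:**
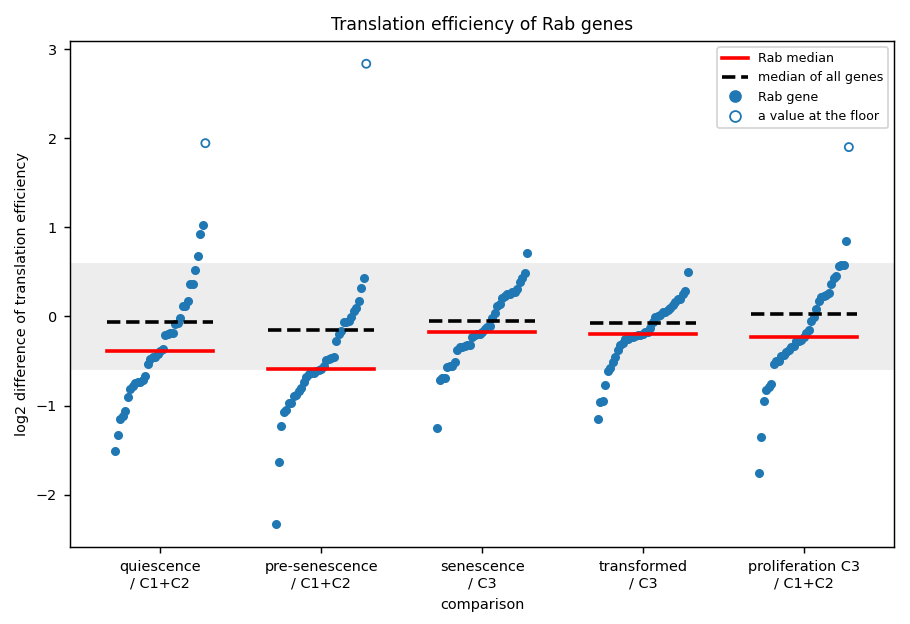
Log2 difference of translation efficiency for 37 Rab genes (points, in rank order within each comparison) in the 4 states against the proliferation value of the same run, and for proliferation C3 against C1+C2. Red lines mark the Rab median, dashed lines the median of all genes, open points values with RAB3A at the Ribo-Seq floor, and the grey band changes under 1.5-fold. The Rab median is -0.38 in quiescence and -0.59 in pre-senescence, and -0.23 between the 2 proliferation values.

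The quiescent and pre-senescent cells, both of run 1, also differed from each other. RNA of 3 Rab genes was higher in quiescence (11.9% of all genes) and 0 lower (11%), namely RAB3D (2.65-fold), RAB5B (1.70-fold) and RAB33B (1.51-fold). By Ribo-Seq 12 of 39 were higher in quiescence (20.6%) and 3 lower (16%). RAB31 (4.22 against 1.71 FPKM), RAB40C (11.7 against 4.75 FPKM) and RAB2B (11.3 against 4.63 FPKM) were higher, and RAB3A, RAB27B and RAB9A lower. In translation efficiency 7 were higher and 4 lower (13.9% and 8.83%). All 4 genes of the cilium and other group (RAB12, RAB23, RAB28 and RAB40C) were among the 12 and among the 7. That group is mixed and not 1 route, since RAB12 acts in receptor degradation. RAB8A, of ciliary transport but grouped with exocytosis, was at 80.6 FPKM in quiescence and 103 FPKM in pre-senescence by Ribo-Seq. Its translation efficiency was 0.79 and 0.72.

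The machinery that switches and reads Rab proteins was taken from 3 lists, of which 22 exchange factors, 28 GTPase activating proteins and 33 effectors passed the RNA filter. Beside the counts that follow, the shares of all genes higher and lower in RNA were 10.5% and 8.95% in quiescence, 5.48% and 6.69% in pre-senescence, 18.3% and 22.4% in senescence, and 12.3% and 11% in the library labelled transformed. The counts are against the proliferation value of the same run only. Of the 22 exchange factors 4 were higher and 0 lower in quiescence, 0 and 1 in pre-senescence, 2 and 5 in senescence and 3 and 2 in the library labelled transformed. DENND2A, an exchange factor of RAB9, was at 7.44, 16.8 and 3.83 FPKM in run 1 and 27.98 FPKM against 6.67 in the library labelled transformed.

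Of the 28 GTPase activating proteins 2 were higher and 1 lower in quiescence, 0 and 0 in pre-senescence, 5 and 3 in senescence and 3 and 3 in the library labelled transformed. TBC1D8 was higher in quiescence (24.2 against 7.66 FPKM) and in the library labelled transformed (21.2 against 6.31 FPKM) and lower in senescence (3.09 FPKM). TBC1D2, which acts on RAB7, was lower in the library labelled transformed (8.98 against 29.7 FPKM, with 14.9 FPKM in C1+C2). In that library USP6NL was higher than C3 (5.55 against 3.65 FPKM) but not than C1+C2 (5.63 FPKM). RAB3GAP1 was lower than C3 (23.14 against 40.25 FPKM) but not than C1+C2 (21.97 FPKM). Of the 33 effectors 3 were higher and 0 lower in quiescence, 1 and 2 in pre-senescence, 4 and 8 in senescence and 2 and 4 in the library labelled transformed. In quiescence EXOC6 also passed against C3 (13.1 against 4.06 FPKM). RABAC1 (167.85 FPKM) and OPTN (42.5 FPKM) did not, with C3 at 163.79 and 39.2 FPKM. In the library labelled transformed EEA1 and EXOC6, both lower, also passed against C1+C2. MLPH and PLEKHM1, both higher than C3, did not, and APPL2 changed sign (34.06 against 26.8 FPKM in C1+C2). In senescence OPTN, which binds RAB8 (99.0 against 39.2 FPKM), and PLEKHM1, which binds RAB7 (26.0 against 10.3 FPKM), were higher. RABAC1 was also higher there (263 against 164 FPKM). MLPH, the melanophilin that links RAB27A to myosin, was lower in senescence (1.90 against 5.19 FPKM), as was its partner RAB27A. INPP5B had a larger difference downwards than MLPH (1.30 against 4.54 FPKM), and both senescent values were near the floor. APPL2, of RAB5 endosomes, was lower (12.02 against 52.9 FPKM, with 26.8 FPKM in C1+C2). EEA1, the early endosome tether bound by RAB5, was lower in the library labelled transformed (3.20 against 9.24 FPKM).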

How the data were processed

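RNA-Seq and Ribo-Seq libraries of BJ cells were analysed from 1 table of FPKM, which the authors computed from aligned reads and deposited. Per the labels and the study's methods, the authors aligned reads with Bowtie (hg19 in the submitters' processing notes) to 1 transcript per gene of Ensembl, kept unique matches and genes with a minimum of reads, scaled RNA to transcript length and Ribo-Seq to coding length, set values under 1 to 1, and pooled 5 of 12 columns; how they were pooled is not given in the sources used here. Unique mapping can lower genes with close paralogs, which was not tested here. Here FPKM were converted to log2 without a pseudocount, genes with a geometric mean under 2 FPKM in an assay were left out of counts, and 1.5-fold was the threshold. Within a run each state has 1 column per assay, and no test was made. Named genes were up to 6 in each direction by size past the threshold, every measured paralog, and some of the 3 largest per direction from each list of Rab regulators. The members and lists were chosen with earlier results of these data known. The calculation was tested on simulated data. Python 3.11.15, pandas 2.3.3, numpy 2.4.6 and matplotlib 3.10.9 were used. Promoter sequences came from RefSeq (GRCh38.p14), and no coordinates were converted. Alternatives were 2-fold, a cut-off of 1.75 local SD over 500 genes of like level, centring on the median of all genes, a pseudocount of 1, no filter, and the other run's proliferation value. Some items withheld for evaluation are not reported here.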

Additional observations from a re-analysis of the deposited data

Results flagged for a closer look

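RAS at 5 days and at 14 days was set against proliferation in separate runs, and 3 Rab genes passed 1.5-fold in opposite directions at the 2 times. RAB38 RNA had a log2 difference of 0.85 at 5 days and -0.64 at 14 days, and its Ribo-Seq level 0.80 and -1.89. With a pseudocount of 1 FPKM the RNA difference at 14 days was -0.50, under 1.5-fold. RAB11A had a Ribo-Seq difference of -0.59 at 5 days and 1.22 at 14 days, of which the first was -0.46, under 1.5-fold, after centring on the median of all genes. RAB3D had a Ribo-Seq difference of -1.21 at 5 days and 0.99 at 14 days, but with the other run's proliferation value the signs were 0.62 and -0.84. The difference between the 2 times was not tested, and time and run cannot be told apart.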

How the results depend on the processing

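Counts are of Rab genes past the threshold in either direction, in the order quiescence, pre-senescence, senescence and the library labelled transformed. At 2-fold the RNA counts were 1, 1, 4 and 4, the Ribo-Seq counts 5, 8, 5 and 6, and the translation efficiency counts 7, 6, 1 and 1. Between senescence and the library labelled transformed they were 8, 11 and 0. With the local SD cut-off RNA gave 0, 3, 1 and 2, Ribo-Seq 2, 4, 2 and 5, and translation efficiency 13, 8, 1 and 6, and between senescence and the library labelled transformed 1, 1 and 0. The 2-fold cut-off is stricter by construction. The shares of all genes at the 2-fold and local SD cut-offs are not given here. The alternatives between senescence and the library labelled transformed were chosen after seeing the data. Centring on the median of all genes left 12 translation efficiency calls in pre-senescence. All other counts, under centring, the pseudocount and no filter, stayed within 1.5 times.

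Of 135 single-gene calls, centring kept 121 and lost 14, a pseudocount of 1 FPKM kept 123 and lost 12, and the other run's proliferation value, an alternative chosen after seeing the data, kept 76, lost 41 and reversed 18. Reversed in RNA were RAB31 in quiescence (-0.38) and pre-senescence (-0.50) and RAB3B in senescence (0.50). Reversed by Ribo-Seq were RAB32 (0.076), RAB27A (0.38), RAB2B (-0.039) and RAB3D (1.16) in quiescence, RAB3D (0.62) in pre-senescence, RAB32 (-0.0046), RAB3B (0.31) and RAB3D (-0.84) in senescence, and RAB2B (0.032) and RAB3D (-0.89) in the library labelled transformed. Reversed in translation efficiency were RAB27A (0.24) and RAB3D (0.25) in quiescence, RAB8B (0.19) and RAB3D (1.11) in pre-senescence, and RAB10 (-0.10) in senescence. The cause was not tested.

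No paired analysis was possible because the columns carry no replicates, and leaving out a replicate was not run for the same reason. The table holds no read counts per gene, so no counting error is given for genes near the floor (RAB3A, RAB3D, RAB6B, RAB27B, RAB33B and RAB43, and by Ribo-Seq RAB31 in pre-senescence and RAB38 in senescence). The table shows a spread within a state for proliferation only, and that across runs.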
